A study of Mus musculus with 31 samples.

Results

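Mettl16 and 9 other genes of the N6-methyladenosine (m6A) system were followed in the hypothalamus of adult offspring of mouse dams on 2 diets. The 10 genes are Mettl16, its target Mat2a, the writers Mettl3, Mettl14 and Wtap, the erasers Fto and Alkbh5, and the readers Ythdf1, Ythdf2 and Ythdc1. They are 10 of the 54532 genes in the deposited table, and all 10 were among the 18743 genes with enough reads to test. Mettl16 was chosen because it had the smallest p of all genes in the diet comparison in daughters, Mat2a as its known target and Fto as a gene tied to obesity, so the daughters' values of Mettl16 are given as a description and not as a test.

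The mice were C57BL/6J, and their dams were fed, while pregnant and nursing, a control diet or a high-fat, high-sugar diet, called obesogenic here. Pups were weaned onto chow at postnatal day 21. From 3 months of age every offspring, including those of control dams, ate the obesogenic diet for 4 weeks, and tissue was taken at 4 months, so there was no group that never met that diet. The groups are called by the dam's diet: 8 libraries of control daughters, 7 of obesogenic daughters, 8 of control sons and 8 of obesogenic sons.

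m6A is a methyl mark on adenosines in RNA. Mettl3 and Mettl14 form the core of the complex that writes it on most messenger RNAs, and Wtap holds that complex in nuclear speckles; Fto and Alkbh5 remove methyl groups, and proteins with a YTH domain bind the mark, Ythdf1 and Ythdf2 in the cytoplasm and Ythdc1 in the nucleus. Mettl16 works alone on a few structured RNAs, among them the U6 small nuclear RNA of the spliceosome and hairpins in the 3′ UTR of Mat2a. Mat2a encodes the enzyme that makes S-adenosylmethionine, the methyl donor of all these writers, and Mettl16 is known to couple Mat2a splicing and stability to the level of that donor.

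The sites that link Mettl16 to Mat2a can be read from the transcript. The 3′ UTR of the Mat2a-201 transcript is 1494 bases long and lies in exon 9 of 9, on the minus strand of chromosome 6 (GRCm38, mm10). It holds 6 matches to the 9-base box that Mettl16 methylates, 5 of them TACAGAGAA and 1 TACAGAAAA, searched on the transcript strand. They are shown because they are the known point of contact of both genes. Each is printed 5′ to 3′ as 30 bases, with the box in capitals. Sequences are from GENCODE release M21 on GRCm38.
Mat2a site 1: tggcgtaggtTACAGAGAAgccttcaagct
Mat2a site 2: ccttgtgataTACAGAGAAgtcacagggca
Mat2a site 3: ctggtgtagcTACAGAGAAaccagcttcct
Mat2a site 4: atggcgtaagTACAGAGAAgccatcacctc
Mat2a site 5: caaggtgtccTACAGAAAAaccttgggtta
Mat2a site 6: gctggtgtggTACAGAGAAgccagcttgtt

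The box of the first site begins 40 bases after the stop codon. The boxes of the others begin 824, 1003, 1118, 1229 and 1337 bases after it. The printed stretches, which start before the box, lie in the same order at chr6:72434234-72434263, chr6:72433450-72433479, chr6:72433271-72433300, chr6:72433156-72433185, chr6:72433045-72433074 and chr6:72432937-72432966. Around the box the bases can pair into a stem, such as ctggt with accag at site 3. The number of consecutive Watson-Crick pairs was 3 at site 1, 6 at site 5 and 5 at each of the other 4 sites. Among 7423 genes with a 3′ UTR of at least that length, 315 (4.24%) had a match to either form of the box in the first 1494 bases, 7 had 2 or more, and no gene other than Mat2a had more than 2. A match is a stretch of letters, not a measured methylation site, and neither methylation nor Mat2a intron retention can be read from counts per gene.

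Library totals ran from 23118626 to 38547288 read pairs, so that 1 pair was worth 0.0259 to 0.0433 CPM (a library-size-scaled count), and the members had from 331 pairs (Mettl3, its lowest library) to 11247 (Fto, its highest). Levels are in CPM after TMM scaling, with SDs, and differences are log2 fold changes ± SE from edgeR. Since no label ties a library to an animal or a litter, p-values measure only the spread between libraries, which may be technical. Of the 31 libraries, 5 are in doubt. Control daughter 7 had the Xist and Y-linked pattern of a male and control son 7 that of a female. Control daughter 5 had 0.0275 CPM of Pmch, the melanin-concentrating hormone gene of the lateral hypothalamus, against 451 to 1183 CPM in the 26 libraries not in doubt, and 3494 CPM of 10 olfactory bulb markers against 337 to 527. In control son 6 only 18734 genes had reads and in obesogenic daughter 3 only 18513, where the 26 had 21311 to 22918. In the other libraries the hypothalamic markers summed to 1263 to 2492 CPM, though Kiss1 had no read in any library. Many comparisons are also given without these 5 libraries. Where only 1 value is given, it is from all 31 libraries.

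Per exon length, Mat2a was the highest of the members, at 47.0 ± 5.36 RPKM (read pairs per kilobase of exon and scaled library size, SD, n = 31), followed by Fto at 22.004 ± 2.20 RPKM. The readers Ythdf1, at 15.5 ± 1.84 RPKM, and Ythdf2, at 8.79 ± 0.739, were higher per exon length than the nuclear reader Ythdc1, at 4.72 ± 0.448. The eraser Alkbh5 stood at 13.2 ± 0.992 RPKM. Among the writers, Wtap at 8.75 ± 0.672 RPKM was above Mettl16 at 4.07 ± 0.543, Mettl3 at 3.82 ± 0.568 and Mettl14 at 3.37 ± 0.304. Neighbours in that order differed by more than the larger of their SDs except Ythdf2 and Wtap, Mettl16 and Mettl3, and Mettl3 and Mettl14. Ythdf2 was above Wtap in 15 of 31 libraries and Mettl16 above Mettl3 in 20 of 31. The order depends on the length used, that of all annotated exons merged, such as 13651 bases for Ythdc1 and 3316 for Ythdf1. In mean CPM, which leaves length out, Fto (287) stood above Mat2a (211). Ythdc1 (64.4) then stood above Ythdf1 (51.3) and Ythdf2 (40.2).

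**Figure D1:**
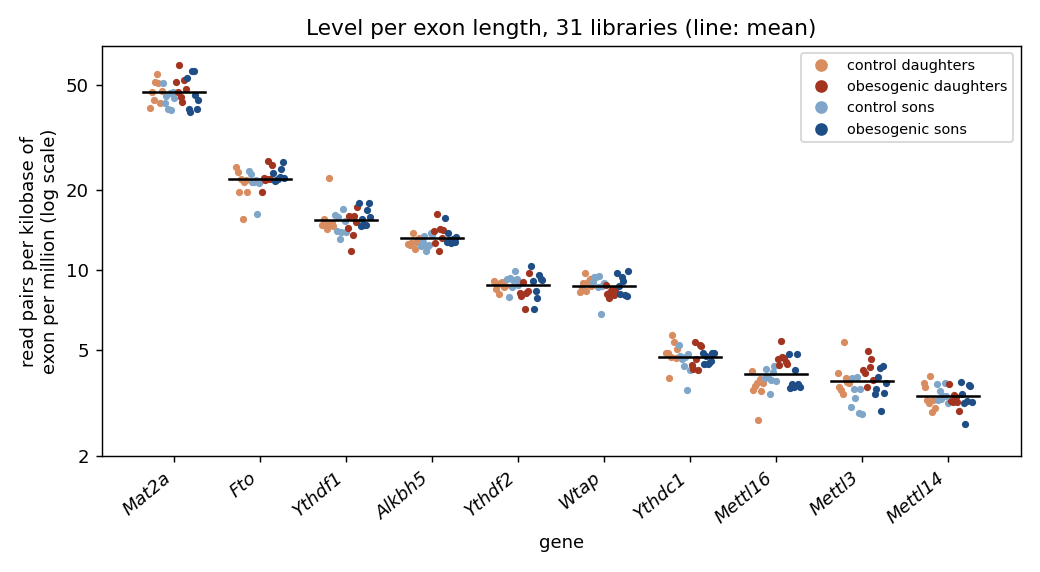
Level of each gene in RPKM (log axis), 1 point per library coloured by group, with the mean over 31 libraries as a line. Mat2a is highest at 47.0 and Mettl14 lowest at 3.37, and the points of Mettl16, Mettl3 and Mettl14 overlap.

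The members varied less between libraries of a group than the median of all genes tested. The within-group SD of log2 CPM was 0.10 for Alkbh5, 0.11 for Wtap, 0.12 for Ythdf2, 0.14 for Mettl14 and for Ythdc1, 0.15 for Mettl16 and for Fto, 0.16 for Mat2a and for Ythdf1, and 0.18 for Mettl3. The median over all genes tested was 0.33, and 0.843% of genes varied less than Alkbh5 and 16.8% less than Mettl3. These shares cover genes of every level, those with few reads included. The members were not set against genes of like level, so the part of their read counts in the small spread was not tested. The 5 libraries in doubt held 24 of the 80 group extremes of the members (the lowest and highest library of each gene in each of the 4 groups).

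Mettl16 (ENSMUSG00000010554, chromosome 11, 74770830 to 74828525, plus strand) stood higher in obesogenic daughters than in any other group. Control daughters ran from 37.9 through a median of 51.4 to 57.9 CPM, and obesogenic daughters from 61.1 through 63.9 to 75.02 CPM. Their means were 50.2 ± 5.79 (SD, n = 8) and 64.8 ± 4.76 CPM (SD, n = 7), a log2 fold change of 0.37 ± 0.08. All 7 obesogenic daughters lay above all 8 control daughters, as was so for 14 of 18743 genes (0.0747%); Mettl16 was picked from this contrast, so nothing is read from that share.

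Both ends of the daughters' range were libraries in doubt: control daughter 5 was the lowest at 37.9 CPM and obesogenic daughter 3 the highest at 75.02 CPM. Without the 5 libraries, control daughters averaged 52.6 ± 3.12 CPM (SD, n = 6) and obesogenic daughters 63.1 ± 1.72 (SD, n = 6). The log2 fold change was then 0.26 ± 0.08, and the groups still did not overlap, as was so in that direction for 0.224% of genes. Beside it in the same comparison, all 10 olfactory bulb markers were lower in obesogenic daughters, with a summed level of 378 to 3494 CPM in controls and 337 to 458 CPM in obesogenic daughters. With the 26 libraries 8 of 10 were lower and the ranges were 378 to 482 and 337 to 458 CPM. All 8 ependymal markers were higher, with sums of 40.2 to 175 and 103 to 235 CPM, and 4 of 8 without the 5 libraries, with sums of 92.2 to 175 and 103 to 169 CPM. All 8 meningeal fibroblast markers were lower, with sums of 51.2 to 212 and 44.2 to 93.4 CPM, and 8 of 8 also without the 5 libraries. All 5 blood markers were higher with and without them, with sums of 65.03 to 233 and 63.9 to 333 CPM. Of 19 hypothalamus markers tested 14 were higher, and 9 without the 5 libraries. The part of these cell markers in the Mettl16 difference was not tested, and in bulk RNA fewer cells of a type and less RNA per cell cannot be told apart.

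The values just outside were those of other gene families. In the diet comparison in daughters Mettl16 had the smallest p of all genes and Gabrd, which encodes a subunit of GABA-A receptors, the next, at a log2 fold change of -3.19 ± 0.73. Cpa6 at -5.69 ± 1.35 and Doc2g at -4.69 ± 1.15 also stood among the 5 of smallest p, and Doc2g is one of the olfactory bulb markers. Doc2g stood at 237.8 CPM in control daughter 5, at 0.325 to 2.41 CPM in the other 7 control daughters and at 0.584 to 2.11 CPM in obesogenic daughters, so its fold change rests on that 1 library in doubt. Without the 5 libraries the lowest fold change of any olfactory bulb marker was -0.92. Whether the fold changes of Gabrd and Cpa6 also rest on control daughter 5 was not tested.

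**Figure D2:**
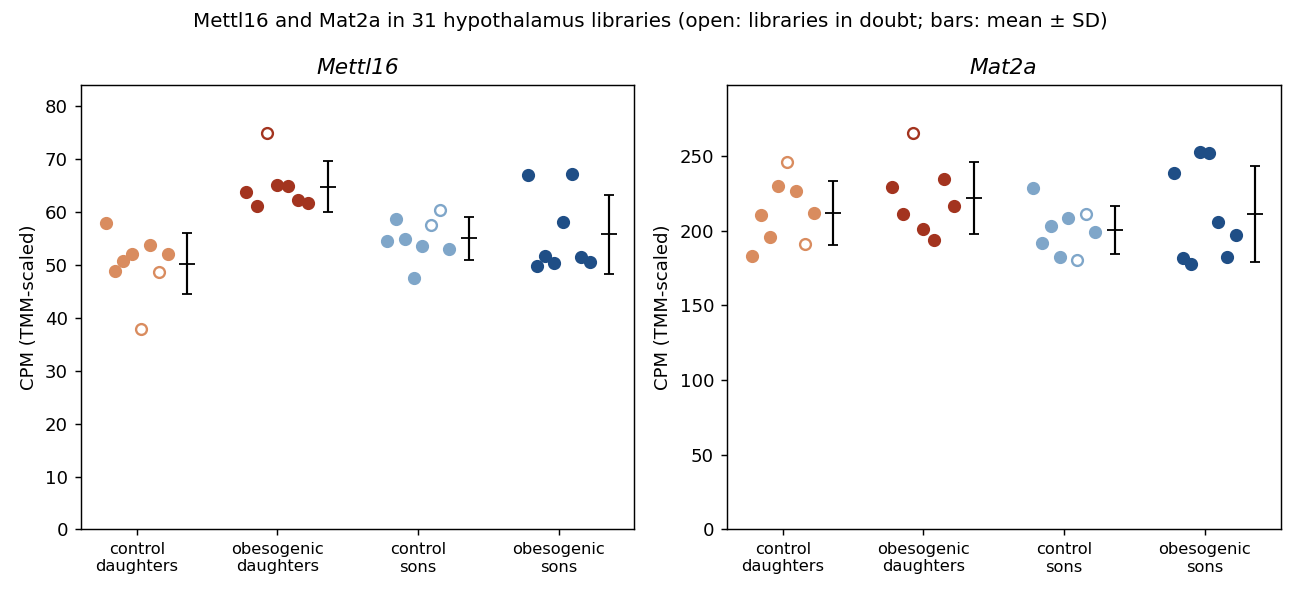
CPM (TMM-scaled, axes from 0) of Mettl16 and Mat2a in the 31 libraries by group, with open points for the 5 libraries in doubt and bars for mean ± SD. The 7 obesogenic daughters lie between 61.1 and 75.02 CPM of Mettl16, above all 8 control daughters, whereas the Mat2a groups overlap throughout.

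In sons, whose libraries did not enter the choice of Mettl16, its level did not pass the test for maternal diet. Control sons ran from 47.4 through 54.8 to 60.5 CPM and obesogenic sons from 49.8 through 51.7 to 67.2 CPM. Of 8 obesogenic sons 5 were below the control mean, and obesogenic sons 1 and 6 stood above every control son, at 67.1 and 67.2 CPM. The means were 55.03 ± 4.00 and 55.8 ± 7.46 CPM (SD, n = 8 each), and the log2 fold change was 0.02 ± 0.08, with a 95% interval of -0.14 to 0.18 (edgeR adjusted p = 0.977). The highest control son was library 7, in doubt. Without the 5 libraries control sons averaged 53.7 ± 3.63 CPM (SD, n = 6). Obesogenic sons, none of them in doubt, stayed at 55.8 ± 7.46 CPM (SD, n = 8).

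The difference between the diet effects in daughters and in sons was 0.35 ± 0.11 for Mettl16, and 0.21 ± 0.10 without the 5 libraries; it contains the contrast that chose the gene. Obesogenic daughters were above obesogenic sons by 0.22 ± 0.08, and all 7 lay above the sons' mean though the groups overlapped. Control daughters were below control sons by a log2 fold change of -0.13 ± 0.08, which became -0.03 ± 0.08 without the 5 libraries. These contrasts share libraries with the one in daughters and are given as values.

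Mat2a (ENSMUSG00000053907, chromosome 6, 72432799 to 72439558, minus strand) did not pass the test in either sex. Its levels ran from 183 through 211 to 245.7 CPM in control daughters and from 194 through 216 to 265.7 CPM in obesogenic daughters. The highest control daughter was library 5 and the highest obesogenic daughter library 3, both in doubt. Without the 5 libraries the daughters' means were 209.6 ± 17.9 CPM for control and 214.4 ± 15.8 CPM for obesogenic dams (SD, n = 6 each). In control sons they ran from 181 through 201 to 229 CPM and in obesogenic sons from 178 through 202 to 253.04 CPM. The groups overlapped in every comparison. The log2 fold change with maternal diet was 0.07 ± 0.09 in daughters (95% interval -0.11 to 0.24, edgeR adjusted p = 0.837) and 0.07 ± 0.08 in sons (-0.10 to 0.24, adjusted p = 0.940). Obesogenic sons fell apart into 3 libraries of 238 to 253.04 CPM and 5 of 178 to 206 CPM; son 1 was high in both genes, sons 4 and 5 in Mat2a alone and son 6 in Mettl16 alone. The ratio of Mat2a to Mettl16 CPM had a median of 4.14 (range 3.16 to 6.48) in control daughters and 3.51 (2.99 to 3.77) in obesogenic daughters. In control and obesogenic sons it was 3.72 (3.14 to 4.19) and 3.60 (3.06 to 5.01). In daughters the ratio carries the Mettl16 difference, and its highest value was that of control daughter 5, in doubt.

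No member passed the edgeR test in any contrast. With Benjamini-Hochberg adjustment edgeR called 0 of 10 members, and 0.0% of all genes, in each of the 5 contrasts. These were diet in daughters, diet in sons, the difference between them, and sex within either maternal diet. The fit thus missed even Xist, at 205 to 716 CPM in obesogenic daughters and at most 0.0562 CPM in obesogenic sons. Without the 5 libraries it called 11 genes for sex in control and 14 in obesogenic offspring, and 0 members. At an unadjusted p under 0.05 there was 1 member in daughters (Mettl16, background 8.12% of genes), 0 in sons (3.45%), 1 in the difference (Mettl16, 3.62%), 1 between control daughters and sons (Mettl3, 4.39%) and 1 between obesogenic daughters and sons (Mettl16, 3.63%). DESeq2 called 1 member, Mettl16 in daughters, the contrast that chose it, where it called 0.032% of all genes. It called 0 members in sons (0.00534% of genes), in the difference (0.032%), and for sex in control (0.00534%) and obesogenic offspring (0.064%). With limma voom 0 members were called in all 5 contrasts, beside 0.016% of genes for sex in obesogenic offspring and 0.0% in the other 4. In sons 8 of 10 members were on the higher side, with a median log2 fold change of 0.05 against 0.0004 for all genes, and in daughters 5 of 10, with a median of 0.01 against -0.01. Without the 5 libraries in doubt 7 of 10 were higher in each sex. The medians were then 0.05 in sons against 0.006 for all genes, and 0.04 in daughters against -0.005.

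**Figure D3:**
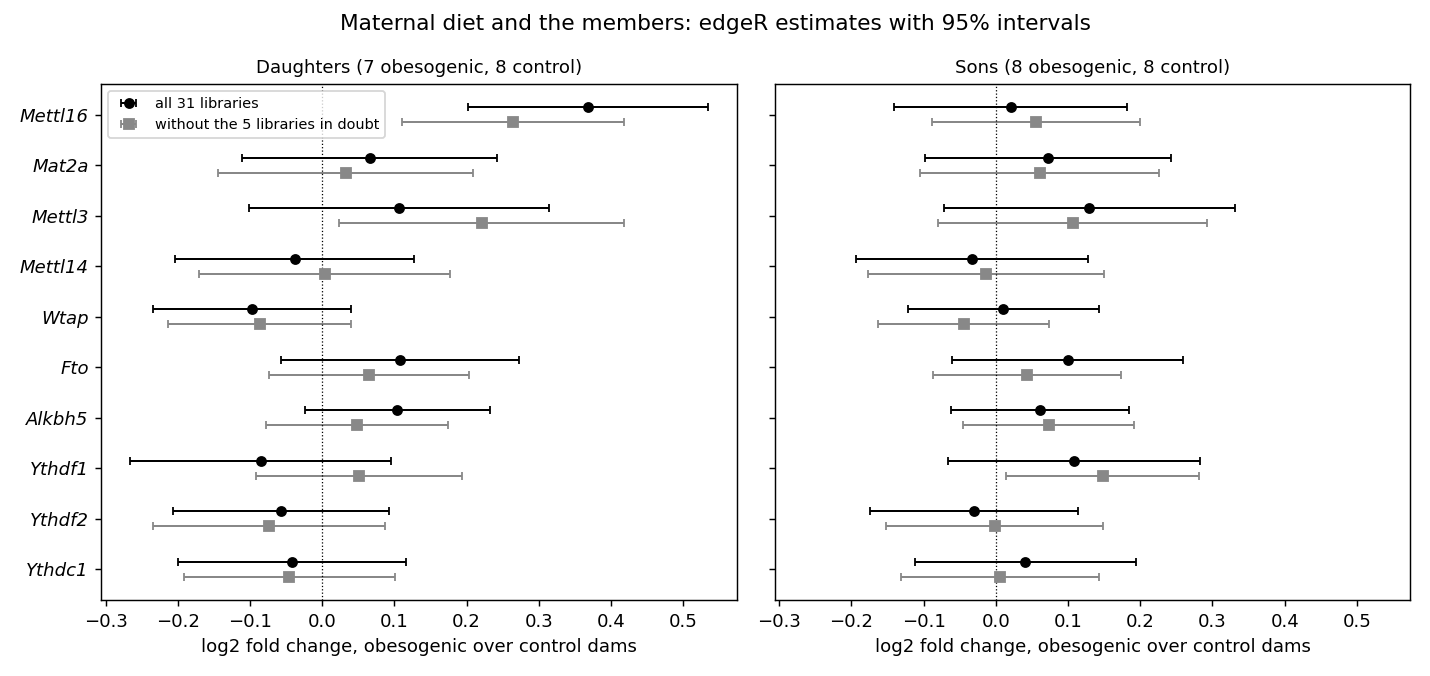
Log2 fold change of each gene, obesogenic over control dams, with its 95% interval from edgeR, in daughters and in sons, from all 31 libraries (black) and without the 5 in doubt (grey). The Mettl16 interval in daughters, which is a description because that contrast chose the gene, runs from 0.20 to 0.53, and with all 31 libraries every other interval crosses 0.

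Among the writers, Mettl3 (the catalytic subunit) had the lowest counts of the members and the widest spread within groups. It ran from 17.4 through 19.3 to 27.4 CPM in control daughters, from 18.5 through 21.4 to 25.2 in obesogenic daughters, from 14.6 through 17.5 to 20.2 in control sons and from 15.003 through 18.7 to 22.2 in obesogenic sons. All groups overlapped. With maternal diet the log2 fold change was 0.11 ± 0.10 in daughters and 0.13 ± 0.10 in sons, and females minus males it was 0.21 ± 0.10 in control offspring (unadjusted p = 0.0376, edgeR adjusted p = 0.995) and 0.19 ± 0.10 in obesogenic offspring. The highest control daughter was library 5, in doubt. Without the 5 libraries the daughters' value was 0.22 ± 0.10 (unadjusted p = 0.0297, adjusted p = 0.554), with 5 of 6 obesogenic daughters above all 6 controls, and the control sex difference fell to 0.11 ± 0.10. Mettl3 overlaps Tox4 on the other strand over 933 bases, which stranded counting separates.

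Mettl14, the RNA-binding partner of Mettl3, ran from 21.8 through 24.1 to 29.7 CPM in control daughters and from 21.9 through 23.9 to 27.6 in obesogenic daughters. In control sons it ran from 23.4 through 24.96 to 28.02 CPM and in obesogenic sons from 19.7 through 24.7 to 28.2. Its groups overlapped and its log2 fold changes with diet were -0.04 ± 0.08 in daughters and -0.03 ± 0.08 in sons. Both subunits work as a dimer, and the ratio of Mettl3 to Mettl14 CPM had medians of 0.773 in control daughters, 0.884 in obesogenic daughters, 0.693 in control sons and 0.761 in obesogenic sons, with ranges that overlapped.

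Wtap, the adaptor, ran from 51.9 through 55.2 to 60.9 CPM in control daughters and from 49.01 through 51.8 to 55.03 in obesogenic daughters. All 7 obesogenic daughters lay below the control mean of 55.5 and 4 of them below every control daughter. The log2 fold change was -0.10 ± 0.07 (95% interval -0.23 to 0.04, edgeR adjusted p = 0.694). In sons it was 0.01 ± 0.07, from control levels of 42.7 through 56.2 to 59.4 CPM and obesogenic levels of 50.2 through 55.8 to 62.1, and -0.04 ± 0.06 without the 5 libraries, the lowest control son being library 6.

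Of the erasers, Fto (ENSMUSG00000055932, chromosome 8, 91313525 to 91668439, plus strand), whose intronic variants are linked to body weight in humans, had the higher level. It ran from 204 through 283 to 319 CPM in control daughters, from 258.1 through 289 to 337 in obesogenic daughters, from 212 through 282 to 309 in control sons and from 282 through 292 to 335 in obesogenic sons. The groups overlapped, and the lowest control daughter and the lowest control son were libraries 5 and 6, both in doubt. The log2 fold change was 0.11 ± 0.08 in daughters (95% interval -0.06 to 0.27) and 0.10 ± 0.08 in sons (-0.06 to 0.26), with edgeR adjusted p of 0.712 and 0.940. It was 0.06 ± 0.07 and 0.04 ± 0.06 without the 5 libraries.

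Alkbh5, the second eraser, ran from 71.9 through 76.2 to 82.8 CPM in control daughters and from 70.9 through 83.9 to 97.4 in obesogenic daughters, of which 4 lay above every control and 1 below. In control sons it ran from 71.05 through 75.6 to 83.2 CPM and in obesogenic sons from 75.8 through 78.2 to 93.9. The log2 fold change was 0.10 ± 0.06 in daughters and 0.06 ± 0.06 in sons, and 0.05 ± 0.06 and 0.07 ± 0.06 without the 5 libraries (edgeR adjusted p = 0.660 in daughters with all 31).

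No reader passed the test in either sex. Ythdf1, a cytoplasmic reader tied to translation, ran from 47.6 through 49.5 to 73.6 CPM in control daughters, from 39.4 through 50.3 to 57.3 in obesogenic daughters, from 43.5 through 48.7 to 56.5 in control sons and from 48.9 through 52.4 to 59.7 in obesogenic sons. Its log2 fold change was -0.09 ± 0.09 in daughters and 0.11 ± 0.09 in sons, a difference of -0.19 ± 0.12 (edgeR adjusted p = 0.9996). The highest control daughter was library 5 and the lowest obesogenic daughter library 3, both in doubt; without the 5 libraries the values were 0.05 ± 0.07 in daughters and 0.15 ± 0.07 in sons (unadjusted p = 0.0312, edgeR adjusted p = 0.9996), with all 8 obesogenic sons above the control mean.

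Ythdf2, the reader tied to decay of marked RNAs, ran from 37.3 through 40.1 to 41.8 CPM in control daughters and from 32.8 through 37.6 to 44.8 in obesogenic daughters. In control sons it ran from 36.3 through 42.1 to 45.6 CPM and in obesogenic sons from 32.6 through 41.9 to 47.4. The obesogenic groups spread on both sides of the controls, and the log2 fold changes were -0.06 ± 0.07 and -0.03 ± 0.07. Ythdc1, the nuclear reader tied to splicing and export, ran from 53.9 through 66.5 to 77.7 CPM in control daughters and from 57.5 through 63.5 to 73.6 in obesogenic daughters. Its sons ran from 48.6 through 64.0 to 71.8 CPM for control dams and from 60.7 through 63.9 to 66.9 for obesogenic dams, all within the control range. The log2 fold changes were -0.04 ± 0.08 and 0.04 ± 0.08, and reads over the 631 bases that Ythdc1 shares with Gm43055 on the same strand are uncertain.

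**Figure D4:**
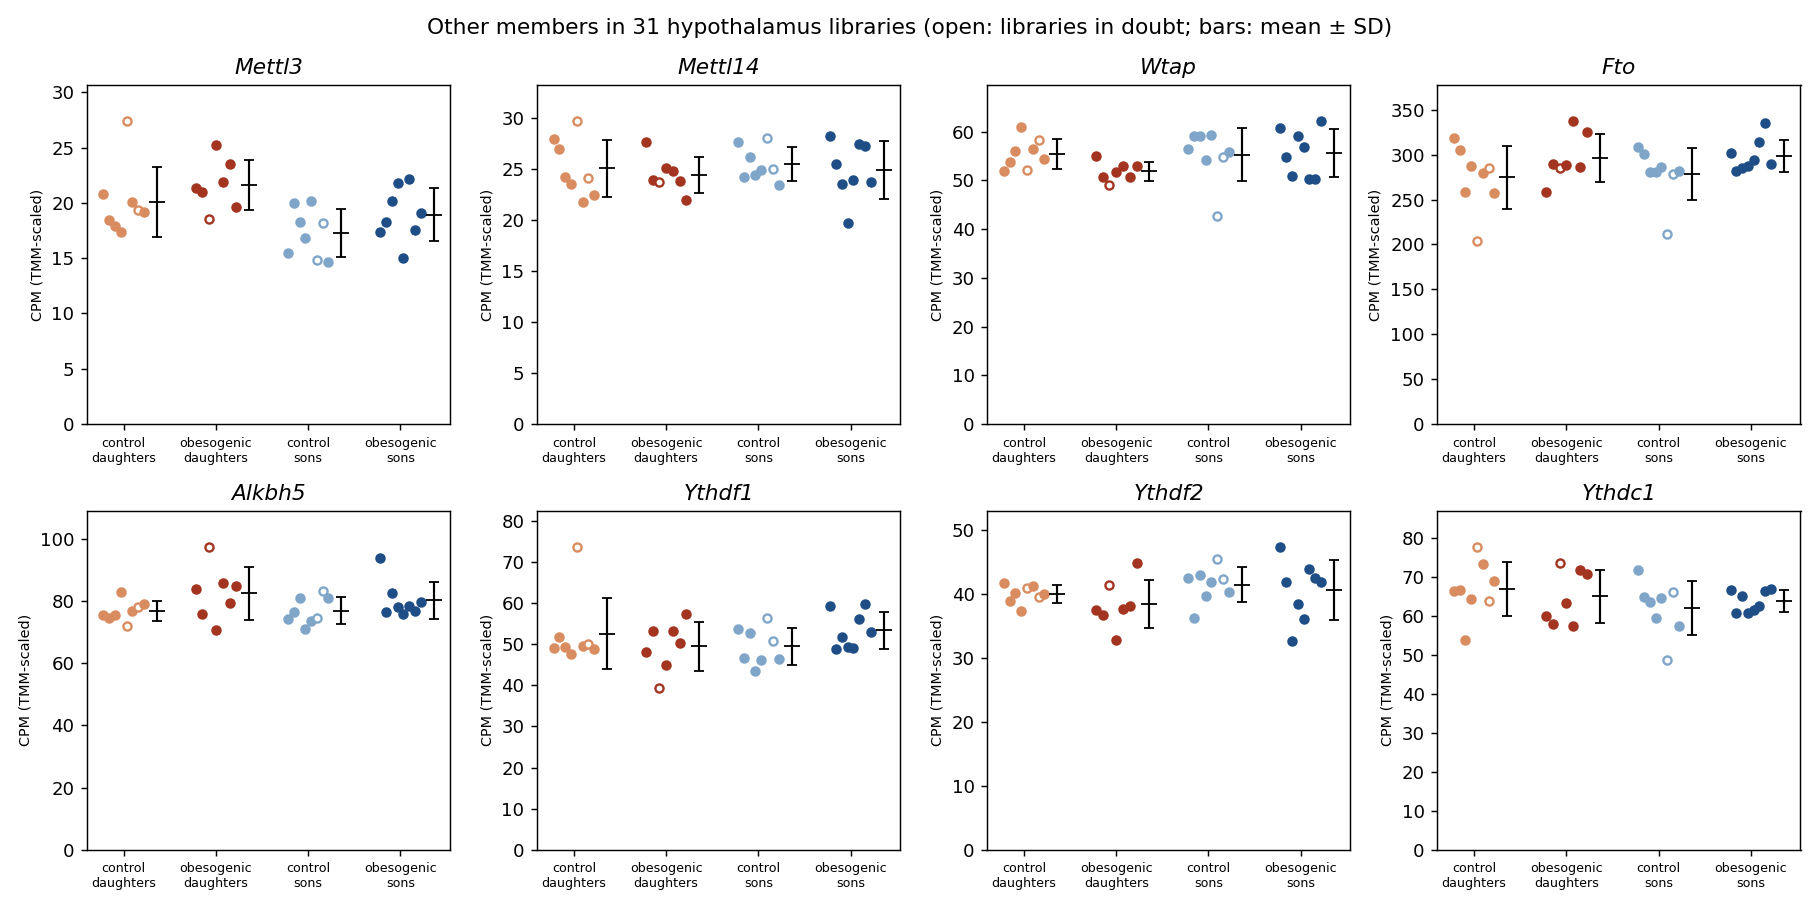
CPM (TMM-scaled, axes from 0) of the 8 members other than Mettl16 and Mat2a in the 31 libraries by group, with open points for the 5 libraries in doubt and bars for mean ± SD. The groups of each gene overlap, and open points sit at the edges of several groups, such as control daughter 5 at 73.6 CPM of Ythdf1 and control son 6 at 212 CPM of Fto.

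Whether the genes moved together from library to library was examined in the deviations of log2 CPM from the group means, so that diet and sex did not enter. None of 45 pairs passed a permutation test (100000 shuffles within groups, two-sided, adjusted over the 45 pairs), 4 had an unadjusted p under 0.05, and 27 had a positive Pearson's r. Without the 5 libraries again 0 passed by Pearson's r and 4 had an unadjusted p under 0.05, but 32 were positive and 15 pairs had changed sign. By Spearman's rho 0 pairs passed with 31 libraries and 1, Ythdf1 with Ythdf2, with 26.

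Mettl16 and Mat2a were weakly related, with r = 0.12 and rho = 0.19 (permutation p = 0.567 and 0.367; adjusted 0.729 and 0.763). Leaving out control daughter 5 and obesogenic son 6, the libraries farthest from the median of Mettl16, r was 0.35, and without the 5 libraries it was 0.25. Within groups r was -0.60 in control daughters, 0.23 in control sons, 0.61 in obesogenic daughters and 0.41 in obesogenic sons. Across all genes the r with Mettl16 had a median of -0.01 and 5th and 95th percentiles of -0.42 and 0.47, so Mat2a stood at the 68.1th percentile. Without the 5 libraries it stood at the 80.1th.

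The member nearest to Mettl16 was Alkbh5, with r = 0.50 and rho = 0.43 (permutation p = 0.00254 and 0.0162; adjusted 0.0760 and 0.183). The r was 0.53, 0.58, 0.67 and 0.51 within control daughters, control sons, obesogenic daughters and obesogenic sons, and 0.56 without the 2 libraries farthest from the median of Mettl16. Without the 5 libraries in doubt it was 0.35 (adjusted p = 0.496), and Mettl14, at 0.44, stood nearer. Among all genes ranked by r with Mettl16, Alkbh5 was at the 96.1th percentile, and at the 88.9th without the 5 libraries. Mettl14 was then at the 94.8th. Mettl16 had a positive r with 5 of the 9 other members with 31 libraries and with 9 of 9 with 26. Its r with Ythdf1 went from -0.30 to 0.29 and with Mettl3 from -0.27 to 0.16 without the 5 libraries; control daughter 5 was the lowest of its group in Mettl16 and the highest in Ythdf1 and Mettl3.

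Other pairs with an unadjusted p under 0.05 were Mettl14 with Ythdf1, at r = 0.50 and rho = 0.45 (adjusted permutation p = 0.0760 and 0.183), Mat2a with Ythdc1, at 0.45 and 0.42 (adjusted 0.0760 and 0.183), and Ythdf1 with Ythdf2, at 0.39 and 0.50 (adjusted 0.229 and 0.183). Without the 2 libraries farthest from the median of the first gene these were r = 0.36, 0.58 and 0.61. Without the 5 in doubt they were 0.35, 0.24 and 0.65. The pair of cytoplasmic readers, Ythdf1 and Ythdf2, was positive in all 4 groups (0.30 in control daughters, 0.75 in control sons, 0.22 in obesogenic daughters and 0.63 in obesogenic sons). Over 26 libraries its rho was 0.68 (adjusted permutation p = 0.0414) while its r missed the threshold (adjusted p = 0.0592). Fto with Ythdf1 changed from r = -0.26 to 0.55 (adjusted p = 0.470 and 0.0592) when the 5 libraries were left out; control daughter 5 was the lowest of its group in Fto and the highest in Ythdf1. Mettl3 with Mettl14, which form a dimer, had r = 0.11 with 31 libraries and -0.07 with 26.

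**Figure D5:**
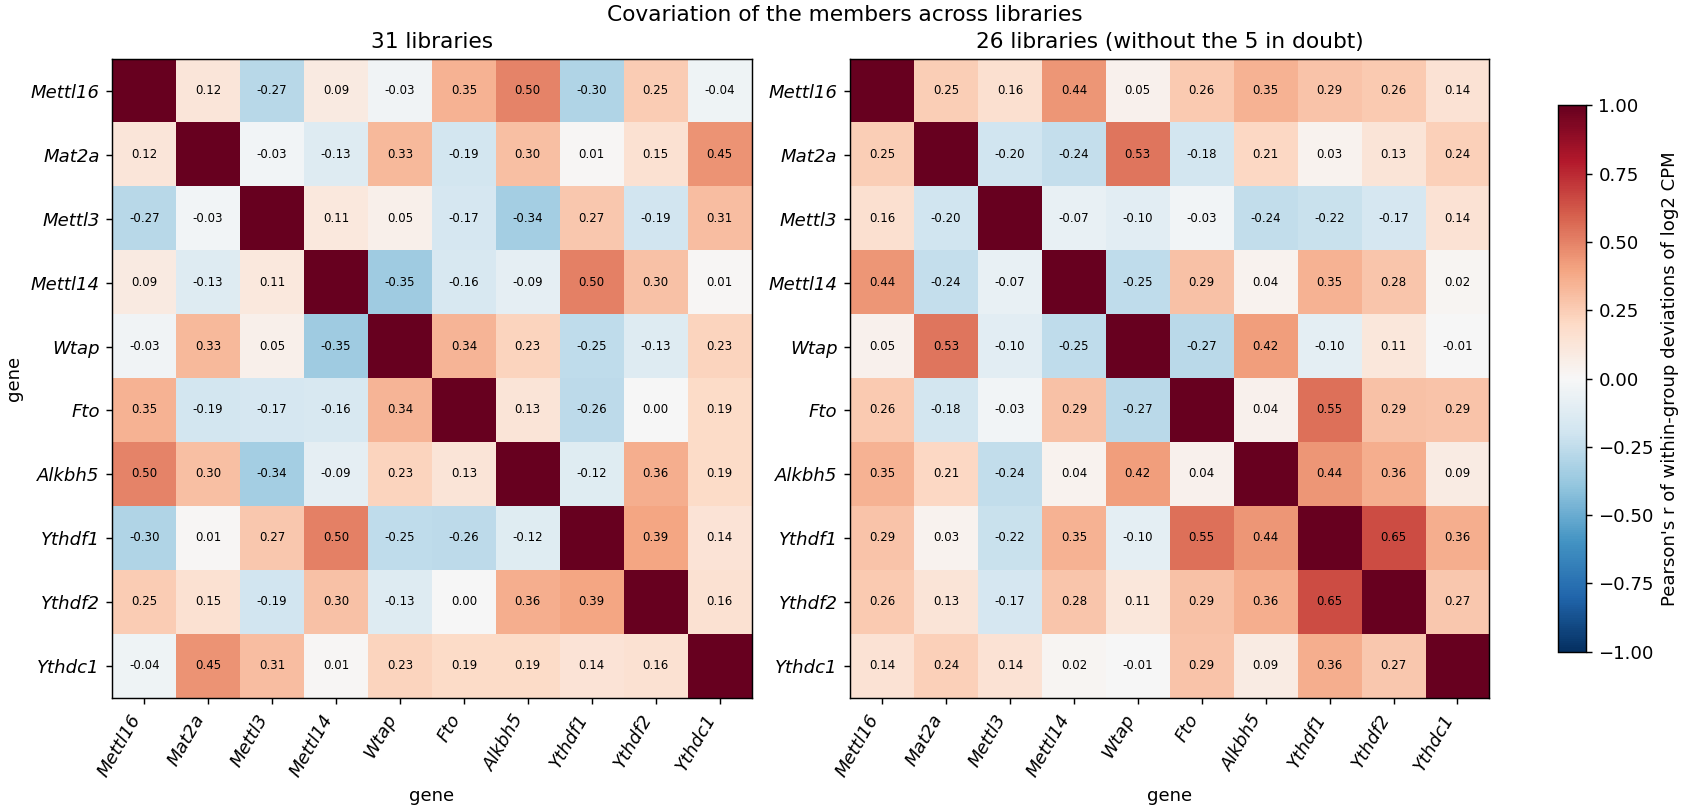
Pearson's r between the members, from deviations of log2 CPM from group means, over 31 libraries (left) and over 26 without the 5 in doubt (right), on a colour scale from -1 to 1. Mettl16 with Alkbh5 (0.50) and Mettl14 with Ythdf1 (0.50) are highest on the left, Ythdf1 with Ythdf2 (0.65) on the right, and 15 of 45 pairs change sign.

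Of 13615 named genes with a mean of at least 1 CPM, those with the highest r with Mettl16 over 31 libraries were Tent5a (0.75), which encodes a poly(A) polymerase, Lman2l (0.73), Cbx5 (0.72), which encodes a heterochromatin protein, Gnpda1 (0.72) and Rpgrip1l (0.71), a gene of the ciliary transition zone. The lowest were Fjx1 (-0.70), Rasl12 (-0.70), Matn4 (-0.70), Actr3b (-0.70) and Fmnl3 (-0.70). They were ranked on the same libraries and are a description. Over 26 libraries the highest of them was Rpgrip1l at 0.65 and Gnpda1 fell to 0.48; the lowest was Actr3b at -0.67, while Fmnl3 came to -0.40. None of the 9 other members was among them.

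Rpgrip1l lies next to Fto on chromosome 8, and the neighbours of Fto, with the Irx genes that its human variants have been linked to, were read with it. Rpgrip1l ran from 15.1 through 23.9 to 29.6 CPM in control daughters and from 28.3 through 31.6 to 33.5 in obesogenic daughters, a log2 fold change of 0.41 ± 0.11 (edgeR adjusted p = 0.5003), and 0.30 ± 0.11 without the 5 libraries. In sons it was 0.05 ± 0.11. Fto and Rpgrip1l had r = 0.46 and rho = 0.29 over 31 libraries (permutation p = 0.0223 and 0.134; adjusted over 4 relations 0.0893 and 0.533), which became 0.10 without the 2 libraries farthest from the median of Fto and 0.08 without the 5 in doubt. With Irx5, r was 0.54 and rho 0.20 (permutation p = 0.0461 and 0.266; adjusted 0.0923 and 0.533). With Irx3, r was 0.33 and rho -0.07 (p = 0.164 and 0.703), and with Irx6 r was 0.33 and rho 0.05 (p = 0.110 and 0.774). Without the 2 farthest libraries, control daughter 5 and control son 6, r was 0.07 for Irx5, -0.04 for Irx3 and 0.14 for Irx6. The r of each of the 4 relations thus fell when both libraries were left out. Within control daughters r was 0.77 for Irx3 and 0.87 for Irx6, and within control sons -0.76 and -0.78. For Irx5 and Rpgrip1l r within control sons was 0.32 and 0.50. The part of each library was not tested. Median levels were 3.72 CPM for Irx3, 2.03 for Irx5 and 2.43 for Irx6, with lowest values of 0.27, 0 and 0. Irx5 itself was at -0.15 ± 0.39 with maternal diet in sons.

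The other genes of the pathway were read in lists; edgeR called 0 genes of every list in the 5 contrasts. Of 5 other writer complex and adaptor genes, 3 were higher in obesogenic daughters and 5 of 5 in obesogenic sons, with medians of 0.07 and 0.13 (0.16 and 0.05 without the 5 libraries). Zc3h13, which keeps the writer complex in the nucleus, ran from 41.9 through 49.0 to 58.4 CPM in control daughters and from 48.9 through 54.5 to 69.01 in obesogenic daughters, a log2 fold change of 0.19 ± 0.09, and 0.13 ± 0.09 in sons. Cbll1, an E3 ligase of the complex, was at 0.14 ± 0.11 in sons. Its groups overlapped in both sexes, as did those of Zc3h13.

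Among 4 other RNA adenosine methyltransferase genes and partners, 3 were lower in both sexes, with medians of -0.17 in daughters and -0.07 in sons. Over 26 libraries 3 were lower in daughters and 2 in sons, with medians of -0.12 and -0.03. Mettl5, which methylates ribosomal RNA, ran from 8.18 through 10.2 to 11.9 CPM in control daughters and from 5.73 through 9.27 to 10.3 in obesogenic daughters. In sons it ran from 8.82 through 9.88 to 12.1 CPM for control dams and from 8.13 through 8.55 to 9.44 for obesogenic dams. Its log2 fold changes were -0.32 ± 0.12 and -0.21 ± 0.11 (edgeR adjusted p = 0.549 and 0.940), and -0.28 ± 0.12 and -0.23 ± 0.11 without the 5 libraries. Its partner Trmt112 was at -0.10 ± 0.11 and -0.13 ± 0.11. Of 10 other reader genes 8 were tested, of which 3 were higher in daughters and 4 in sons, with medians of -0.04 and -0.0043. Over 26 libraries 6 were higher in daughters and 3 in sons, with medians of 0.006 and -0.0165, so the majority in daughters turned with the 5 libraries in doubt. Hnrnpc, an RNA-binding protein of the nucleus, was at -0.09 ± 0.08 in sons. Ythdc2, an RNA helicase with a YTH domain, was at 0.27 ± 0.20 in sons and 0.16 ± 0.13 without the 5 libraries.

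Of 23 methionine cycle and S-adenosylmethionine genes 21 were tested, with 13 higher in obesogenic daughters (median 0.08) and 11 in obesogenic sons (median 0.04). Over 26 libraries 13 were higher in daughters and 13 in sons, with medians of 0.027 and 0.033. Nnmt, which uses up S-adenosylmethionine by methylating nicotinamide, ran from 1.04 through 1.68 to 3.71 CPM in control sons and from 0.450 through 0.931 to 1.21 in obesogenic sons, ranges that overlapped, with a log2 fold change of -1.07 ± 0.32 (unadjusted p = 0.00228, edgeR adjusted p = 0.940). In daughters it was 0.29 ± 0.33, and in sons without the 5 libraries -0.89 ± 0.29.

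Of 13 genes that process or bind U6, the other main target of Mettl16, 10 were lower in obesogenic daughters and 11 in obesogenic sons, with medians of -0.14 and -0.13. With the 26 libraries 8 and 9 were lower, with medians of -0.07 and -0.01. Lsm4 and Lsm7, subunits of the ring that binds the end of U6, were at -0.28 ± 0.15 and -0.32 ± 0.18 in sons, and -0.12 ± 0.12 and -0.08 ± 0.14 without the 5. Nudt21 and Cpsf6, subunits of the cleavage factor that acts in Mat2a splicing, were at 0.12 ± 0.07 and 0.09 ± 0.09 in sons and at 0.01 ± 0.07 and 0.02 ± 0.09 in daughters. Of 17 other methyltransferase-like genes 16 were tested, and 10 were lower in daughters and 12 in sons, with medians of -0.04 and -0.03. Over 26 libraries 14 were lower in daughters and 6 in sons, with medians of -0.08 and 0.02, so the direction in sons turned without the 5 libraries in doubt. Mettl23 was at -0.45 ± 0.16 in sons (unadjusted p = 0.00977, edgeR adjusted p = 0.940) and -0.37 ± 0.17 in daughters; without the 5 libraries it was -0.25 ± 0.13 and -0.22 ± 0.13. Mettl2 was at 0.17 ± 0.13 in sons.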

How the data were processed

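RNA of the hypothalamus was read from 1 deposited table of counts of read pairs per gene. Per the file headers, the authors counted with featureCounts 1.6.2, using the GRCm38 genes of Ensembl release 94, reverse-stranded, with a minimum mapping quality of 10; per the submitters' processing notes, TopHat2 2.0.13 and build mm10 were used. The counts are not normalized, and only pairs with both ends mapped were counted, per the same header.

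Groups came from the labels. Totals of 23118626 to 38547288 pairs set the precision. Genes were filtered with filterByExpr, scaled with TMM and tested with quasi-likelihood tests in edgeR 4.0.16 (R 4.3.3, limma 3.58.1) on 1 mean per group, with p-values adjusted over the 18743 genes tested and 0.05 as threshold. Correlations used log2 CPM with a prior count of 2. Levels per length used the deposited merged exon length. The 6 sites were found in GENCODE M21 transcripts. Scripts were tested on simulated data. Alternatives changed the tool (DESeq2 1.42.0, or limma voom with quality weights), the scaling (RLE), the filter (none, or 1 CPM in 7 libraries), the model (2 surrogate variables from sva 3.50.0, or a fit to the 2 groups at hand) and the libraries (without the 2 against their sex label, the 2 with 2 numbers in the title, or the 5 in doubt). Named genes were the 10 members, the 5 genes of highest and the 5 of lowest r with Mettl16 (mean of at least 1 CPM, no predicted models), and from each pathway list at most the 2 of smallest p in sons. The members and lists were chosen with earlier results of these data known. Proteins, methylation and splicing were not analysed here. One gene that the naming rule selects and 1 sequence are not reported here.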

Additional observations from a re-analysis of the deposited data

Results flagged for a closer look

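In 7 of 40 groups (10 genes in 4 groups) 1 library lay far from the rest of its group by a gap test that flags about 1 group in 20 by chance. Control daughter 5 was the library set apart for 3 genes: lowest for Mettl16 at 37.9 CPM, with the others at 48.6 to 57.9, highest for Mettl3 at 27.4 CPM, with the others at 17.4 to 20.8, and highest for Ythdf1 at 73.6 CPM, with the others at 47.6 to 51.8. Obesogenic daughter 3 was highest for Mettl16 at 75.0248 CPM, with the others at 61.1 to 65.1. Control son 6 was lowest for Wtap at 42.7 CPM, with the others at 54.3 to 59.4, and lowest for Fto at 212 CPM, with the others at 279 to 309. These 6 values come from libraries in doubt. Obesogenic son 1 was highest for Alkbh5 at 93.9 CPM, with the others at 75.8 to 82.7. It is not among the 5 in doubt, but it is 1 of the 2 libraries with 2 numbers in the title.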

How the results depend on the processing

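Over 490 recomputed fold changes of the members, 449 kept their direction and side of the threshold, 40 changed sign, and 1 crossed the threshold. That 1 was Mettl16 in daughters by DESeq2, at 0.37 (DESeq2 adjusted p = 0.0465). Over all alternatives (DESeq2, limma voom and edgeR settings) its adjusted p ran from 0.0465 to 0.615 and its fold change from 0.26 to 0.37. Mettl16 was picked from that contrast, so these values are a description and not a test. The values that changed sign were at most 0.0853 in size with edgeR on all libraries and at most 0.114 under the alternative, and the cause was not tested. All 40 mean levels moved by under 1 SD when CPM was taken from plain library totals in place of TMM scaling. Genes called went from 0 by edgeR to 6 in daughters, 1 in sons, 6 in the difference, 1 for sex in control and 12 in obesogenic offspring by DESeq2, which called 1 member in daughters. For sex, 10 and 9 genes were called without the 2 libraries against their label and 11 and 14 without the 5 in doubt; in obesogenic offspring 6 were called with surrogate variables, 3 by voom and 12 with only the 2 groups compared.

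Signs changed as follows. With 2 surrogate variables, the difference between sexes was 0.034 for Mat2a, 0.061 for Mettl3, 0.037 for Mettl14 and -0.051 for Fto, diet in daughters 0.015 for Mettl14 and 0.023 for Ythdf1, diet in sons -0.039 for Wtap and -0.0051 for Ythdc1, and sex in control offspring 0.014 for Fto and 0.0030 for Alkbh5. With voom, the difference was 0.054 for Mat2a, 0.082 for Mettl3, 0.023 for Mettl14 and -0.0096 for Fto, daughters 0.041 for Ythdf1, sons -0.019 for Mettl16, -0.043 for Wtap and -0.027 for Ythdc1, and sex -0.0035 for Mat2a and -0.035 for Wtap (control) and -0.025 for Ythdc1 (obesogenic). With the filter of 1 CPM the difference was 0.00081 for Mat2a and 0.0043 for Mettl14. Without the 2 libraries with 2 numbers in the title (obesogenic daughter 1 and obesogenic son 1), the difference was 0.013 for Mat2a and 0.014 for Ythdf2, sons -0.021 for Mettl16 and -0.0088 for Wtap, and sex in obesogenic offspring 0.019 for Fto. Without the 2 against their sex label, sex in control offspring was -0.0050 for Wtap and 0.012 for Alkbh5. Without the 5 in doubt, the difference was 0.11 for Mettl3, 0.017 for Mettl14 and -0.025 for Alkbh5, daughters 0.0033 for Mettl14 and 0.051 for Ythdf1, sons -0.045 for Wtap, and sex -0.046 for Wtap and 0.022 for Alkbh5 (control) and -0.0028 for Alkbh5 and -0.0058 for Ythdc1 (obesogenic). Of 27 recomputed correlations with Mettl16, 7 changed sign: without the 5, 0.16 for Mettl3, 0.045 for Wtap, 0.29 for Ythdf1 and 0.14 for Ythdc1; with surrogate variables, -0.070 for Fto, 0.14 for Ythdf1 and 0.049 for Ythdc1. The fit of only the 2 groups compared could not be run for the difference, which needs all 4. No paired analysis was possible because the labels give no replicate numbers or pairing.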
